A study of Mus musculus with 3 samples.

Results

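The genes of the splicing machinery were examined for H3K36me3 in mouse regulatory T (Treg) cells. They were taken by name, as the protein-coding genes of the GENCODE M21 annotation whose symbols begin with Srsf, Hnrnp, Snrp, Snrnp, Sf3a, Sf3b, U2af or Prpf, which gave 75 of 21951 coding genes. By role these were 11 SR proteins, 20 hnRNP proteins, 19 Snrp and Snrnp proteins, 9 Sf3a and Sf3b subunits, 3 U2af proteins and 13 Prpf proteins. H3K36me3 was profiled by chromatin immunoprecipitation and sequencing (ChIP-seq) in Treg cells sorted as CD3+CD4+YFP+ from adult C57BL/6 mice at steady state. Their genotype is Foxp3-YFP in the labels and Foxp3Cre-YFP in the methods, so that all the pooled animals carried Cre recombinase and YFP expressed with Foxp3, the Treg lineage gene. One antibody was used for both tissues. There were 3 libraries, of which 1 was from spleen, 1 from large intestine and 1 was an input of splenic Treg chromatin that served the authors' peak calling and was not analysed here. Each tissue library came from the cells of 7 male and 7 female mice pooled into 1 sample. There were no replicates, so every difference below is a difference between 2 libraries, with no test and no p-value, and what belongs to the tissue and what belongs to the library cannot be told apart. Because the cells were pooled, a change in the share of cells that carry the mark and a change in its amount per cell cannot be told apart either.

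Pre-mRNA splicing is carried out by the spliceosome, which is built anew on each intron from small nuclear ribonucleoproteins (snRNPs) named U1, U2, U4, U5 and U6. The U1 snRNP recognises the start of the intron, U2af and the U2 snRNP recognise its end and branch point, and the U4/U6.U5 tri-snRNP then joins and is rearranged into the catalytic form. SR proteins and hnRNP proteins bind the transcript and steer which splice sites are used, and many of their genes control their own output through alternative exons that send the transcript to nonsense-mediated decay. H3K36me3 is the trimethylation of lysine 36 of histone H3. Setd2 writes it while travelling with elongating RNA polymerase II, so it lies over the bodies of transcribed genes and builds up towards their ends.

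Each deposited value was the mean read coverage of 1 peak in RPKM, a coverage scaled per kilobase and by library depth. A peak was given to a gene when its midpoint lay in the gene body. A pair of quantities was taken from these values. The gene-body average is the mean RPKM over the whole gene body, with bases outside peaks set to 0, and it can be compared between genes of different length. The log2 ratio between the tissues (large intestine over spleen, so that negative values mean less in large intestine) used the summed values of a gene's peaks, a pseudocount of 0.5 RPKM and a correction for the ratio of the 2 library totals (1.03). Values given below for a library are as deposited, before that correction. Where a gene's peaks are said to sum to a value, that sum grows with the number of peaks and does not rank genes by level. Ratios were computed for genes with at least 20 RPKM summed over both libraries. Where an interval stands beside the ratio of a gene, it is an approximate 95% interval that covers counting error only. After correction for GC content, described below, the interval keeps the counting error of the uncorrected ratio and leaves out any error of the correction.

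The data set held 120910 peaks that covered 116 Mb, and the steps between low values corresponded to a depth of about 29600000 mapped reads for the spleen library and 38100000 for that of large intestine, on the assumption of 20-bp bins in the coverage tracks. Of the coding genes, 9456 passed the filter. All 6 of 6 Treg and T cell markers (Foxp3, Il2ra, Ctla4, Ikzf2, Cd3e and Cd4) had peaks, with gene-body averages of 4.62 to 20.3 RPKM in spleen and 3.92 to 18.1 RPKM in large intestine. Of 8 markers of intestinal epithelium 2 had a peak, and their gene-body averages summed to 0.733 RPKM in spleen and 1.43 in large intestine, with Cdh1, Krt8, Krt19, Krt20, Cdx1 and Cdx2 at 0. Both markers with a peak were higher in large intestine. The peaks of Epcam summed to 25.3 RPKM in spleen and 47.2 in large intestine, a log2 ratio of 0.84 (0.23 to 1.46). The 1 peak of Vil1, below the filter, had 4.63 and 12.6 RPKM. The cause was not tested. For B cells 3 of 6 markers had a peak, with sums of 5.88 and 6.46 RPKM in spleen and large intestine and Ms4a1 and Ebf1 at 0. For myeloid cells 2 of 6 had a peak, with sums of 15.1 and 15.3 RPKM. Cd68 alone had 13.8 RPKM in both libraries, within the range of the Treg and T cell markers, while Lyz2, Itgam, Adgre1 and Spi1 were at 0.

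The peaks of splicing factor genes differed widely in base composition, and the ratio between the tissues moved with it. To show this range, 6 stretches of reference sequence are printed here, each the central 200 bases of a peak of at least 1 kb, from the 3 most AT-rich and the 3 most GC-rich of 97 such peaks whose centre lay in an intron. Coordinates are of GRCm38 (mm10), the sequence runs 5′ to 3′ on the strand of the gene, and capitals mark CpG dinucleotides. The stretches from AT-rich peaks lie in introns of Sf3b1 (chr1:54995741-54995940, minus strand), Hnrnpk (chr13:58396359-58396558, minus strand) and Srsf7 (chr17:80202789-80202988, minus strand). Those from GC-rich peaks lie at another intronic position of Srsf7 (chr17:80206039-80206238, minus strand) and in introns of Snrnp40 (chr4:130376123-130376322, plus strand) and Sf3a2 (chr10:80803179-80803378, plus strand).
Sf3b1: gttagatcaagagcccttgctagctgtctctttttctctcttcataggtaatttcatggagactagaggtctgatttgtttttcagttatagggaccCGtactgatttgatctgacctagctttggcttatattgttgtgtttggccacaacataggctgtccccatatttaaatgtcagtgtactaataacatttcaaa
Hnrnpk: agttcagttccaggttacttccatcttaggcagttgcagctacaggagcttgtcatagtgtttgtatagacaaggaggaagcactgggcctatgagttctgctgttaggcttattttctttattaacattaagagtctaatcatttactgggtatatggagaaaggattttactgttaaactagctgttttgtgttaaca
Srsf7 (from its AT-rich peak): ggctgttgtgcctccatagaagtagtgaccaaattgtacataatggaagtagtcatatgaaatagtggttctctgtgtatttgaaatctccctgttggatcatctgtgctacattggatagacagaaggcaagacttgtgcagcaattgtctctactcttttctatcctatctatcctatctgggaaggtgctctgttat
Srsf7 (from its GC-rich peak): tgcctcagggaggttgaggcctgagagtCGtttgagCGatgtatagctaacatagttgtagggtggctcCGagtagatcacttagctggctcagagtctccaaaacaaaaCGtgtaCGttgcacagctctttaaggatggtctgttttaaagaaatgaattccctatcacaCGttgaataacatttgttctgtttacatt
Snrnp40: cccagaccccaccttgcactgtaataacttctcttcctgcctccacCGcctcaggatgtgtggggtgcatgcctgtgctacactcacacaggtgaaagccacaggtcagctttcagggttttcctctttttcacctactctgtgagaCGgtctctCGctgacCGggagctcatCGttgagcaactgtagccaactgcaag
Sf3a2: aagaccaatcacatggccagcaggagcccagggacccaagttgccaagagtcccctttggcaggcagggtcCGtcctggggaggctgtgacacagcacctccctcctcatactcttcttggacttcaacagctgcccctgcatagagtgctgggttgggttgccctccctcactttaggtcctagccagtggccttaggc
In the AT-rich set, the whole peak of Sf3b1 had a GC content of 36.1% and a value of 15.1 RPKM in spleen and 11.8 in large intestine. The peak of Hnrnpk (GC 36.9%) had 19.3 and 16.5 RPKM, and the AT-rich peak of Srsf7 (also 36.9%) 17.8 and 16.5 RPKM. These 3 peaks were thus lower in large intestine, with log2 ratios of -0.39, -0.27 and -0.14. In the GC-rich set, the other peak of Srsf7 (GC 52.0%) had 10.7 RPKM in spleen and 12.1 in large intestine, that of Snrnp40 (GC 52.5%) 13.6 and 15.6 RPKM, and that of Sf3a2 (GC 58.6%) 31.4 and 39.5 RPKM. These 3 peaks were higher in large intestine, with log2 ratios of 0.12, 0.15 and 0.28. A peak of Prpf6 with its midpoint in an intron (1571 bp, GC 52.9%) went the other way. It had 15.5 RPKM in spleen and 12.9 in large intestine, a log2 ratio of -0.30. It was not among the 97, and its midpoint also lay in another coding gene. In the order printed, the stretches themselves had GC contents of 38.5%, 38.0%, 40.5%, 43.0%, 54.5% and 59.5%, so that the stretch from the GC-rich peak of Srsf7 was less GC-rich than its peak. That stretch holds 6 CpG, the Snrnp40 stretch 5 and the Sf3b1 and Sf3a2 stretches 1 each, whereas those of Hnrnpk and of the AT-rich peak of Srsf7 hold none.

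Splicing factor genes carried more H3K36me3 than most coding genes in Treg cells of both tissues. Of the 75 genes 71 (94.7%) had at least 1 peak, against 45.7% of all coding genes, and 69 (92.0%) passed the filter, against 43.1%. Among the 69, the median gene-body average was 11.6 RPKM in spleen and 10.3 in large intestine, with an interquartile range from 7.75 to 17.3 RPKM in spleen and from 7.85 to 17.5 RPKM in large intestine. Over all coding genes that passed, the medians were 4.95 and 5.20 RPKM. By this measure 38 of the 69 (55.1%) ranked in the top 25% of the genes that passed. The spread among the splicing factors was wide, from 0.969 RPKM in spleen for Prpf40b to 28.0 RPKM for Hnrnpl. Their order was nearly the same in both tissues (Pearson r = 0.98, Spearman rho = 0.97 across the 69 genes on a log2 scale), as it was across all 9456 genes (r = 0.98), and both libraries share the same peaks and gene lengths.

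**Figure D1:**
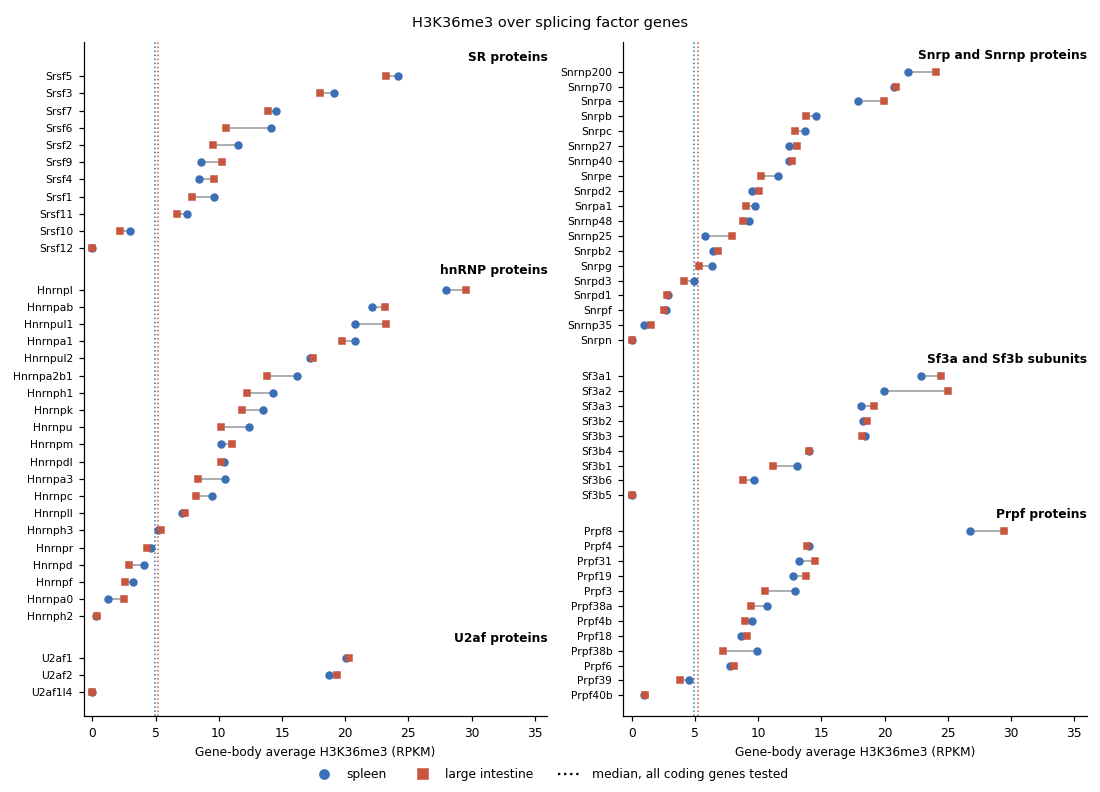
Gene-body average H3K36me3 in RPKM for 74 of the 75 splicing factor genes, by role, in spleen (circles) and large intestine (squares), 1 library each. Dotted lines mark the medians of all coding genes that passed the filter (4.95 RPKM in spleen and 5.20 in large intestine). Most splicing factor genes lie to the right of these lines in both tissues.

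The high averages went with broad coverage of the gene, to which the average is tied because bases outside peaks count as 0. Peaks covered a median of 71.7% of the body of a splicing factor gene, against 39.2% over all genes that passed, and 53 of 69 (76.8%) were covered over at least 50% of their length, against 38.5%. The 3591 other coding genes covered over at least 50% had median averages of 11.45 RPKM in spleen and 12.25 in large intestine, near those of the splicing factor genes. The longest peak of the gene had a median length of 5234 bp, against 2650 bp, and it reached 5 kb in 38 of 69 genes (55.1%), against 25.3%. The number of peaks was smaller, with a median of 4 against 7. Splicing factor genes were shorter, with a median length of 14160 bp against 24720 bp, and shorter genes had higher averages across all genes (Spearman rho = -0.40). The 35 splicing factor genes within the interquartile range of their own lengths were therefore set beside the 3312 other coding genes of the same lengths. Their medians were 12.8 RPKM in spleen and 12.3 in large intestine with 76.1% of the body covered, against 6.93 RPKM, 7.22 RPKM and 49.5%.

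Along the gene, the mark was almost absent at the start and reached high values earlier than in other genes. In the first 5% of the body the mean over the 69 splicing factor genes was 0.775 RPKM in spleen and 0.907 in large intestine, close to the 0.727 and 0.868 RPKM of 9305 other coding genes. From 25% to 30% of the body it was 12.6 and 12.0 RPKM, against 4.95 and 5.17 RPKM in the others. It was highest from 70% to 75% of the body, at 16.3 and 16.0 RPKM. In the last 5% it was 12.7 RPKM in both tissues, against 9.0 and 9.86 RPKM in the others. The mark ran past the annotated end, with 11.0 RPKM in spleen and 11.3 in large intestine over the first 1 kb downstream, and was down to 2.31 and 2.71 RPKM from 4 to 5 kb downstream. Only Hnrnpa3 and Prpf8 had the gene start inside a peak (2 of 69, 2.90%, against 4.38% of all genes that passed), whereas 43 had the gene end inside a peak (62.3%, against 39.7%).

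**Figure D2:**
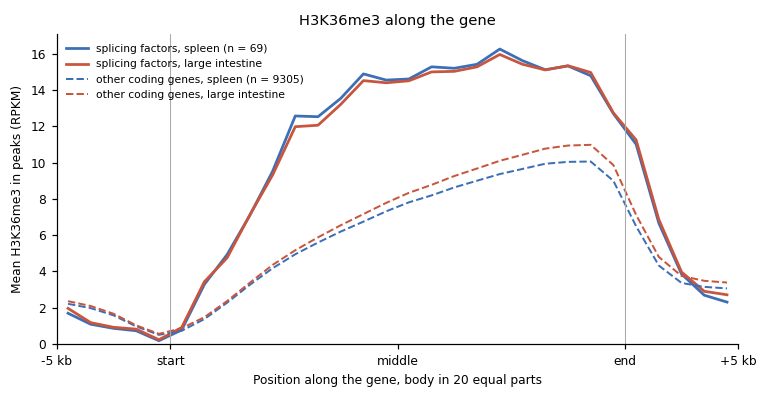
Mean H3K36me3 in RPKM along 69 splicing factor genes (solid lines) and 9305 other coding genes (dashed lines) in spleen and large intestine. The gene body is cut into 20 equal parts and flanked by 5 kb on each side, and bases outside peaks count as 0. The splicing factor genes reach 12.6 RPKM in spleen by 25% to 30% of the body, where the other genes are at 4.95 RPKM.

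As a group, the genes differed from other coding genes in some features that the choice by name did not use. An annotated transcript subject to nonsense-mediated decay was present in 34 of 69 (49.3%), against 32.3% of the genes that passed. By class it was present in 9 of the 10 SR protein genes with a ratio, 10 of 19 hnRNP, 7 of 13 Prpf and 2 of 2 U2af genes. In Snrp and Snrnp genes it was present in 5 of 17 (29.4%) and in Sf3a and Sf3b genes in 1 of 8 (12.5%). Another gene started within 1 kb in the opposite direction in 16 of 69 (23.2%), against 11.3%. Of their 469 peaks 164 had the midpoint in an exon of any annotated transcript of the gene and 305 in an intron. The same share was not computed over all peaks, so this split is not a comparison with other genes. Few peaks were shared with the body of another coding gene, 11 of the 467 peaks of the genes that passed (2.36%) against 7.71% over all. The median peak had 646 bp, 11.8 RPKM in spleen and 10.6 in large intestine, against 456 bp, 10.4 RPKM and 10.5 RPKM over all peaks. Hnrnpd and its paralog Hnrnpdl lie on the same strand of chromosome 5 with 54638 bp between them.

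The difference between the tissues was small for nearly all of these genes. Their median log2 ratio, large intestine over spleen, was -0.071 (95% binomial interval over genes -0.16 to -0.015), beside 0.0047 over all coding genes that passed. This interval describes spread among genes of the same 2 libraries, treats them as independent and holds no error between libraries, so it is not evidence of a tissue difference. The ratios of splicing factor genes lay closer together, with an interquartile range of -0.21 to 0.069 and an SD of 0.25, against -0.20 to 0.23 and an SD of 0.47 over all. Of the 69, 53 (76.8%) had a log2 ratio between -0.25 and 0.25, against 56.6% over all and 71.2% of other coding genes that were covered over at least 50% of the body. No splicing factor gene was past 2-fold in either direction, where 3.23% of all genes that passed were past it towards large intestine and 1.81% towards spleen. Past 1.5-fold, 1 was higher in large intestine (9.02% over all) and 2 were higher in spleen (5.57% over all). More were lower than higher in large intestine, with 24 of 69 above 0 (34.8%) against 50.7% over all. The counting interval lay above 0 for 4 genes (5.80%, against 18.5% over all) and below 0 for 12 genes (17.4%, against 15.9% over all). The median counting SE of a ratio was 0.14, and the interval of the other 53 included 0.

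**Figure D3:**
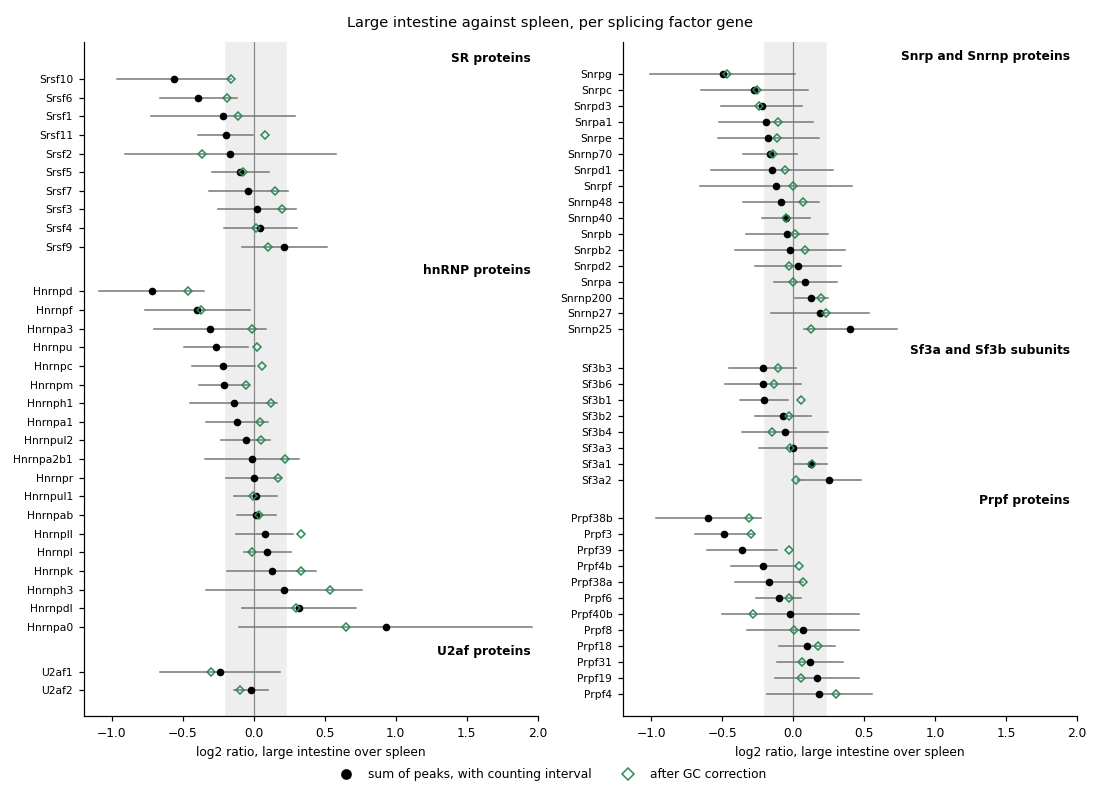
Log2 ratio of large intestine over spleen for 68 of the 69 splicing factor genes that passed the filter, by role. Filled circles show the ratio from summed peaks with its approximate 95% counting interval, open diamonds the ratio after correction for the GC content of the peaks, and the grey band the interquartile range of all coding genes that passed (-0.20 to 0.23). Hnrnpd and Prpf38b lie furthest to the left and Hnrnpa0 furthest to the right, the last with an interval from -0.10 to 1.96.

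The ratio moved with the GC content of the peaks. Splicing factor peaks were AT-rich, with a median GC content of 42.9% against 46.5% over all peaks. Across the 69 genes the log2 ratio and the mean GC content of the gene's peaks had a Pearson r of 0.68 and a Spearman rho of 0.56, given as a description, since the points come from the same 2 libraries. Over all 9456 genes r was 0.33 and rho 0.43. With peaks weighted by their length r was 0.80 across the 69 and 0.35 over all. In the 23 genes with the lowest GC content (36.5% to 43.4%) the median log2 ratio was -0.21 and 3 were above 0. In the middle 23 (43.5% to 46.9%) it was -0.096 with 6 above 0, and in the highest 23 (47.1% to 71.6%) 0.069 with 15 above 0. A trend in the same direction ran through the whole peak set, which was split into 10 classes of equal size by GC content. The median log2 ratio went from -0.41 in the most AT-rich class to 0.29 in the most GC-rich class.

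Each peak's ratio was therefore also corrected by the median of its GC class. After this correction the median of the splicing factor genes was 0.0012, beside -0.018 over all genes that passed, and 36 of 69 were above 0 (52.2%, against 46.9% over all). The sign of the ratio turned in 20 of the 69 genes. Counting intervals then lay above 0 for Snrnp200, Sf3a1, Hnrnpll and Hnrnpk (4 of 69, 5.80%, against 12.2% over all) and below 0 for Hnrnpd, Prpf3 and Hnrnpf (3 of 69, 4.35%, against 15.1% over all). Past 1.5-fold, 1 was higher in large intestine (6.72% over all) and 0 were higher in spleen (6.46% over all). Weighting the peaks by their length instead left 24 of 69 above 0 (52.9% over all), with intervals above 0 for 6 (23.6% over all) and below 0 for 21 (17.9% over all), 1 gene past 1.5-fold higher in large intestine (7.87% over all) and 0 higher in spleen (4.45% over all). Which part of the GC trend comes from the libraries and which from the tissues cannot be told apart with 1 library each.

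**Figure D4:**
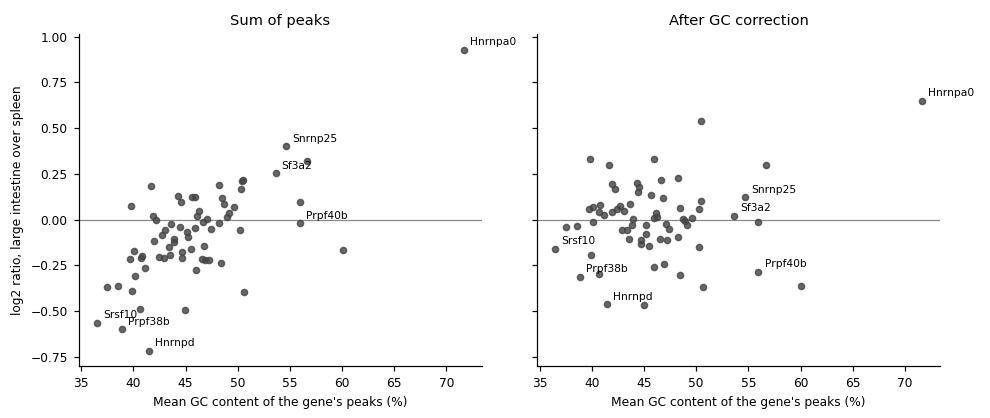
Log2 ratio of large intestine over spleen for the 69 splicing factor genes against the mean GC content of their peaks in percent, from summed peaks (left) and after correction by GC class (right). On the left the ratio goes up with GC content (r = 0.68), and on the right the relation is weaker (r = 0.20, rho = 0.023). Several named genes are marked.

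The SR proteins bind exonic enhancers through their RNA-recognition motifs and recruit the spliceosome through their arginine-serine domains. The 10 SR genes with a ratio had a median gene-body average of 10.6 RPKM in spleen and 9.95 in large intestine and a median log2 ratio of -0.13. Srsf5 was highest, with 24.2 and 23.2 RPKM from 1 peak of 4367 bp that covered 93.6% of the gene. Srsf3, which also takes part in the export of mRNA, had 19.2 and 18.0 RPKM, and Srsf7, its close relative, 14.5 and 13.9 RPKM. None of these 3 had a counting interval clear of 0, with log2 ratios of -0.096 (-0.30 to 0.11), 0.022 (-0.25 to 0.30) and -0.038 (-0.31 to 0.24). The ratio of Srsf3 was -0.11 under length weighting, and that of Srsf7 0.15 after GC correction. The 3 SR genes whose interval lay below 0 were Srsf10, Srsf6 and Srsf11. They were singled out after their values were seen. Srsf10, known as a splicing repressor when dephosphorylated, summed to 84.8 RPKM in spleen and 59.0 in large intestine over 8 peaks, all 8 of them lower in large intestine. Its log2 ratio of -0.56 (-0.97 to -0.16) became -0.16 (-0.56 to 0.24) after GC correction, and its peaks were the most AT-rich of the group, with a mean GC content of 36.5%. The peaks of Srsf6 summed to 34.8 and 27.3 RPKM, with a log2 ratio of -0.39 (-0.66 to -0.12), or -0.19 after GC correction. Those of Srsf11 summed to 170.1 and 152.8 RPKM, with a log2 ratio of -0.20 (-0.40 to -0.0037), which turned to 0.079 after GC correction. Srsf12 had no peak.

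The hnRNP proteins coat nascent transcripts, and many repress the use of nearby splice sites. The 19 hnRNP genes with a ratio had medians of 10.5 RPKM in spleen and 10.2 in large intestine, with a median log2 ratio of -0.015, and they held both the lowest and the highest ratio of all splicing factor genes. Hnrnpl, a regulator of the T cell exons of CD45, had the highest gene-body average of all 75 genes, with 28.0 and 29.6 RPKM, and ranked 110 among the 9456 genes. Hnrnpab had 22.2 and 23.2 RPKM from a single peak of 9599 bp, and Hnrnpul1 had 20.8 and 23.2 RPKM. The peak of Hnrnpab ran past the end of the gene, and its midpoint also lay in another coding gene, so its signal cannot be given to Hnrnpab alone. The log2 ratios were 0.096 (-0.070 to 0.26) for Hnrnpl, 0.018 (-0.12 to 0.16) for Hnrnpab and 0.013 (-0.14 to 0.17) for Hnrnpul1. With peaks weighted by length the ratio of Hnrnpul1 was 0.115 (0.034 to 0.196), and after GC correction -0.0093 (-0.16 to 0.14). Hnrnpll, the paralog of Hnrnpl that switches CD45 isoforms on T cell activation, had lower averages of 7.13 and 7.29 RPKM. Its peaks summed to 177.9 RPKM in spleen and 193.5 in large intestine, with 11 of 17 peaks higher in large intestine. The log2 ratio of 0.076 (-0.13 to 0.28) was 0.33 (0.13 to 0.54) after GC correction, but -0.013 (-0.15 to 0.13) with peaks weighted by length and -0.088 from peaks of at least 1 kb alone.

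Hnrnpd, which encodes a protein that binds AU-rich elements of mRNA, had the lowest ratio of the group and was singled out for it. Its peaks summed to 107.9 RPKM in spleen and 67.4 in large intestine. Of its 9 peaks 8 were lower in large intestine, and the longest, of 4031 bp in the middle of the gene, had 13.3 RPKM in spleen and 9.77 in large intestine. The log2 ratio was -0.72 (-1.09 to -0.35). Weighting the peaks by length gave -0.54, and the GC correction -0.46 (-0.83 to -0.094). The mark was modest in both libraries, with gene-body averages of 4.07 and 2.88 RPKM and 31.6% of the gene covered. Its neighbour Hnrnpdl, also taken after its values were seen, had gene-body averages of 10.4 and 10.1 RPKM. The long peak of Hnrnpdl (5421 bp) had 15.2 and 13.8 RPKM and a log2 ratio of -0.18, while its short peak (522 bp, GC 72.4%), centred 317 bp from the gene start, had 6.05 and 13.7 RPKM and a log2 ratio of 1.08. The ratio of Hnrnpdl was accordingly 0.32 (-0.080 to 0.72) from summed peaks and -0.11 with peaks weighted by length.

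Hnrnpa0, which has a single coding exon and was also singled out for its ratio, summed to 11.9 RPKM in spleen and 23.9 in large intestine over 2 short peaks of a mean GC content of 71.6%. Its log2 ratio of 0.93 was the highest of the group, with an interval from -0.10 to 1.96 that included 0. Hnrnpf, whose protein binds runs of G in the transcript, summed to 121.4 RPKM in spleen and 94.99 in large intestine, with 3 of 12 peaks higher in large intestine. Its log2 ratio was -0.40 (-0.76 to -0.030) and changed little after GC correction, to -0.37 (-0.74 to -0.0026). Hnrnpc, which binds runs of U, had 171.1 and 152.0 RPKM and a log2 ratio of -0.22 (-0.44 to 0.0050), which was -0.26 (-0.39 to -0.13) under length weighting and 0.059 (-0.16 to 0.28) when corrected for GC content. Hnrnpr summed to 299.4 and 308.6 RPKM over 33 peaks, with a log2 ratio of -0.0019 (-0.19 to 0.19).

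For Hnrnpm the direction depended on how its peaks were combined. The 17 peaks summed to 237.1 RPKM in spleen and 211.3 in large intestine, a log2 ratio of -0.21 (-0.38 to -0.039). Of the 8 peaks of at least 1 kb, 5 were higher in large intestine, and the strongest, near the end of the gene, had 35.3 and 48.2 RPKM. With peaks weighted by length the log2 ratio was 0.085. Hnrnpk showed the opposite, with 0.13 (-0.19 to 0.44) from summed peaks and -0.23 (-0.41 to -0.062) under length weighting. Corrected for GC content, its ratio was 0.33 (0.017 to 0.64), so that its interval was clear of 0 in opposite directions under the last 2 settings. Of its 3 peaks 1 was higher in large intestine, a peak of 409 bp with 4.76 and 14.0 RPKM. The peaks of Hnrnpu summed to 99.1 RPKM in spleen and 84.9 in large intestine, and its log2 ratio of -0.27 (-0.49 to -0.041) was 0.024 after GC correction. Hnrnpk and Hnrnpu were chosen after their values were seen. Hnrnph2, on chromosome X, was below the filter, with 1 peak of 8.24 RPKM in spleen and 8.54 in large intestine. Several hnRNP genes have processed copies elsewhere in the genome, and how reads with several matches were treated is not given in the sources used here.

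The Snrp and Snrnp genes encode the Sm core shared by the snRNPs and the proteins particular to U1, U2, U5 or the minor spliceosome. The 17 with a ratio had medians of 9.76 RPKM in spleen and 10.1 in large intestine, and a median log2 ratio of -0.085. The highest averages were those of Snrnp200, the helicase that unwinds U4 from U6 (21.8 and 24.0 RPKM), of Snrnp70 (20.8 and 20.9 RPKM) and of Snrpa (17.9 and 19.99 RPKM), the last 2 being U1 proteins. Snrnp200 was also the member with the highest ratio among the 19 with at least 200 RPKM over both libraries. It summed to 95.7 RPKM in spleen and 107.9 in large intestine. All 5 of its peaks were higher in large intestine, by log2 ratios of 0.062 to 0.19. The gene's log2 ratio was small, at 0.13 (0.0097 to 0.24), and was 0.20 (0.081 to 0.32) after GC correction. Snrnp70 had a log2 ratio of -0.16 (-0.35 to 0.026) and Snrpa one of 0.085 (-0.14 to 0.31).

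Among other proteins of these particles, Snrnp40 of U5 summed to 233.5 RPKM in spleen and 232.9 in large intestine over 18 peaks, with a log2 ratio of -0.049 (-0.22 to 0.12). Snrpd3, of the Sm core, summed to 167.7 and 148.2 RPKM over its peaks, with a log2 ratio of -0.22 (-0.51 to 0.060). Snrnp25, Snrnp35 and Snrnp48 belong to the minor spliceosome, which removes a rare class of introns. Snrnp48, named after its values were seen, had gene-body averages of 9.25 RPKM in spleen and 8.82 in large intestine over 10 peaks and a log2 ratio of -0.085 (-0.35 to 0.18). Snrnp25 had 1 peak with 12.6 RPKM in spleen and 17.4 in large intestine, a log2 ratio of 0.40 (0.074 to 0.73) that was 0.12 (-0.20 to 0.45) after GC correction. Snrnp35 had 1 peak with 7.43 and 11.7 RPKM and fell below the filter. Snrpn, an imprinted gene best known from neurons, had no peak across its 157725 bp.

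The Sf3a and Sf3b subunits hold the U2 snRNP at the branch point. As a class they had the second highest averages, with medians of 18.2 RPKM in spleen and 18.4 in large intestine over 8 genes, and all 8 were covered over at least 50% of the body. Sf3a1 had 22.9 and 24.5 RPKM with 94.9% of the gene covered, Sf3a2 had 19.98 and 25.01 RPKM, and Sf3a3 had 18.2 and 19.1 RPKM. The counting interval of Sf3a1 lay just above 0, at 0.12 (0.0069 to 0.24) and 0.13 (0.018 to 0.25) after GC correction, but included 0 with peaks weighted by length, at 0.052 (-0.044 to 0.15). Sf3a2, whose peak was the most GC-rich of those printed, had 0.25 (0.027 to 0.48), which was 0.022 (-0.20 to 0.25) after GC correction, and Sf3a3 had 0.00091 (-0.24 to 0.24). Sf3b1, which contacts the branch-point region, was named after its values were seen. It summed to 188.2 RPKM in spleen and 168.3 in large intestine, with 3 of 13 peaks higher in large intestine, and its log2 ratio of -0.21 (-0.38 to -0.035) turned to 0.057 (-0.11 to 0.23) after GC correction. Sf3b3 held the longest peak of the group, of 25633 bp. Sf3b5, like Hnrnpa0 a gene with 1 coding exon, had no peak.

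U2af1 and U2af2 form the factor that reads the end of the intron. They had gene-body averages of 20.1 RPKM in spleen and 20.3 in large intestine for U2af1 and of 18.7 and 19.4 RPKM for U2af2. The intervals of both included 0, with log2 ratios of -0.24 (-0.66 to 0.18) for U2af1 and -0.019 (-0.14 to 0.10) for U2af2. With peaks weighted by length the ratio of U2af1 was -0.027 (-0.16 to 0.11), as 1 peak of 10329 bp held 94.7% of its peak length. U2af1l4, a short paralog of U2af1, had no peak.

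The Prpf genes encode mainly proteins of the tri-snRNP and of the complexes that activate it, and had the widest interquartile range of log2 ratios of the 6 classes (0.46), with values from -0.60 to 0.18 over 13 genes. Their medians were 9.87 RPKM in spleen and 9.10 in large intestine, with a median log2 ratio of -0.10. Prpf8, the scaffold of the catalytic centre, was the second highest of all splicing factor genes, with 26.8 and 29.5 RPKM, and 1 peak of 21901 bp held 95.4% of its peak length. Prpf4, a U4/U6 protein, had 14.0 and 13.9 RPKM, and Prpf31, which bridges U4/U6 and U5, 13.2 and 14.5 RPKM. Their log2 ratios were 0.069 (-0.32 to 0.46) for Prpf8, 0.18 (-0.19 to 0.56) for Prpf4 and 0.12 (-0.11 to 0.35) for Prpf31. With peaks weighted by length the ratio of Prpf8 was 0.093, with an interval just clear of 0 (0.0088 to 0.18). After GC correction it was 0.0083 (-0.38 to 0.40). The ratio of Prpf4 was -0.060 under length weighting, -0.077 in its strongest peak and -0.045 from peaks of at least 1 kb. Prpf18, which acts in the second step of splicing, summed to 193.1 RPKM in spleen and 213.2 in large intestine over its peaks, with a log2 ratio of 0.097 (-0.098 to 0.29).

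Prpf39, tied to the U1 snRNP, had one of the 6 lowest ratios among members with at least 200 RPKM over both libraries. It summed to 136.3 RPKM in spleen and 109.2 in large intestine, with 3 of 13 peaks higher in large intestine. Its log2 ratio of -0.36 (-0.61 to -0.12) was -0.033 (-0.28 to 0.21) after GC correction. Prpf3 and Prpf38b were taken after their values were seen. Prpf3, a U4/U6 protein, summed to 112.9 RPKM in spleen and 83.0 in large intestine, and all 8 of its peaks, along the whole gene, were lower in large intestine. Its log2 ratio of -0.49 (-0.69 to -0.28) was -0.36 under length weighting and -0.30 (-0.50 to -0.097) when corrected for GC content. Prpf38b summed to 55.2 and 37.4 RPKM over 4 peaks, all lower in large intestine. Its log2 ratio of -0.60 (-0.97 to -0.23) was -0.31 (-0.68 to 0.055) after GC correction.

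**Figure D5:**
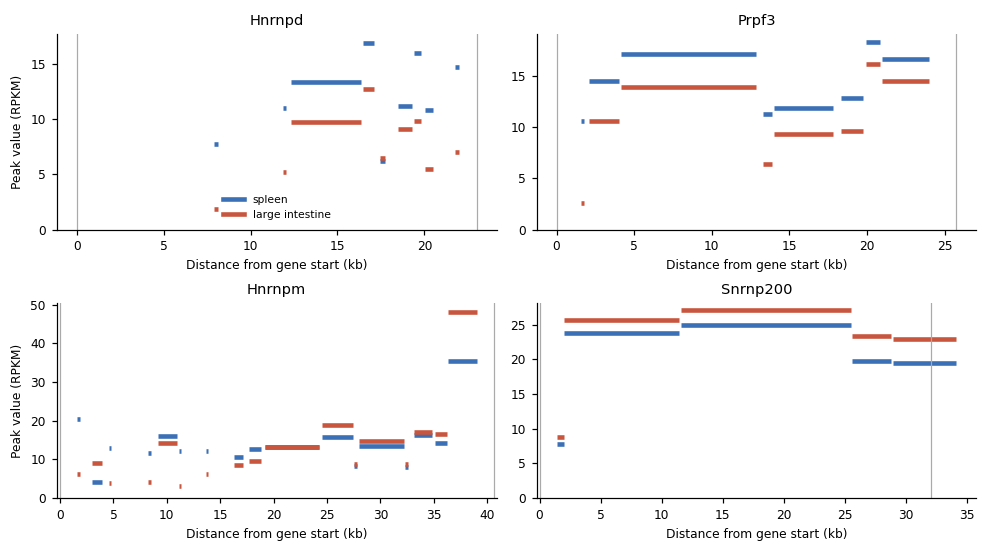
Deposited peak values in RPKM in spleen and large intestine along Hnrnpd, Prpf3, Hnrnpm and Snrnp200, against the distance from the gene start in kb. Each bar spans 1 peak and grey lines mark the gene start and end. Nearly all peaks of Hnrnpd (8 of 9) and all of Prpf3 (8 of 8) are lower in large intestine, all 5 of Snrnp200 are higher, and Hnrnpm has both kinds.

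The other genes of the splicing pathway, which do not carry these names, gave a similar picture. Of 86 such genes (LSm proteins, helicases, exon junction and Prp19 complex members, SR kinases and regulators such as Ptbp1 and Mbnl1) 85 had a peak, all but Lsm5, and 84 passed the filter. Their median gene-body average was 12.2 RPKM in spleen and 11.9 in large intestine. Their median log2 ratio was -0.090 (95% binomial interval -0.15 to -0.035) and -0.0087 after GC correction, and 27 of 84 were above 0 (50.7% over all genes that passed). None was past 2-fold. Past 1.5-fold, 0 were higher in large intestine (9.02% over all) and 1 was higher in spleen (5.57% over all). The latter was Cwc27, named for its value, whose peaks summed to 97.8 RPKM in spleen and 57.8 in large intestine, a log2 ratio of -0.80 (-1.30 to -0.30). Its gene-body averages were low, at 0.147 and 0.0870 RPKM. Counting intervals lay above 0 for 5 of the 84 (18.5% over all) and below 0 for 15 of them (15.9% over all).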

How the data were processed

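H3K36me3 ChIP-seq libraries of Treg cells from spleen and large intestine (1 each) were analysed. Per the methods, the authors aligned 75-nt single-end reads to mm10 (the submitters' processing notes name Bowtie2), called peaks per tissue with MACS2 against the input, merged them with bedtools, and averaged bamCoverage tracks over each peak, so the deposited values are mean RPKM per peak. Although the table carries a raw-count label, its values are not whole numbers, so no count test was run. Of the per-sample columns 0 were left unused. Versions of these tools are not given in the sources used here.

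Peaks were assigned to GENCODE M21 coding genes by their midpoint and summed per gene. No chromosome (0 of 21) had a peak past the end of the GRCm38 chromosome. Products of value and peak length were whole multiples, within 0.05, of a step of 1.69 RPKM in spleen (99.99% of 102924 peaks low enough to tell) and 1.31 RPKM in large intestine (100.0% of 102361), the worth of 1 read in a bin, and depth was derived on the assumption of 20-bp bins, since the bin size is not given in the sources used here. Counting intervals took 200 bp per read and treated reads as independent molecules. Medians have binomial intervals over genes, which treat genes as independent and leave out any error between libraries. Where a peak was weighted by length, its value was multiplied by its length before summing.

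The members and lists were chosen with earlier results of these data known. Named genes were the 3 highest by gene-body average in each class, the 6 lowest and 6 highest ratios among members with at least 200 RPKM over both libraries, members past 2-fold, the 3 members with the lowest signal, and members with no peak. A gene that this rule names and a marker gene are not reported here by name, while the counts and medians include them. Alternatives covered scaling, pseudocount, filter, combination, length and assignment of peaks, and GC content. The counts of intervals under length weighting and GC correction were added after seeing the data. Scripts used Python 3.11.15, pandas 2.3.3, scipy 1.17.1 and pysam 0.24.0 and were tested on simulated data. The simulation drew its counts with the same 200 bp per read as the intervals. It therefore cannot check that setting or any error between libraries.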

Additional observations from a re-analysis of the deposited data

How the results depend on the processing

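Across 11 alternatives, 97 values of the splicing factor genes and the other spliceosome genes were recomputed. A value counted as kept when it stayed within the interval of the reported value or, for a count or interquartile range, within 1.5-fold of it. By this rule 73 were kept, 23 moved and 1 turned. Kept values could thus differ, as with 24 genes above 0 that became 30 with no rescaling, and moved values could keep their direction. The value that turned was the median log2 ratio, from -0.071 to 0.0012 after GC correction. The same correction brought the other spliceosome genes from -0.090 to -0.0087 and the genes with a counting interval below 0 from 12 to 3, whereas weighting peaks by length gave 21. Genes past 1.5-fold higher in spleen, 2 in the report, numbered 1 with no rescaling, a pseudocount of 5, the strongest peak or the nearest transcript start, and 0 with a filter of 200 RPKM (which keeps 19 genes), length weighting, peaks of at least 1 kb, or GC correction. Genes past 1.5-fold higher in large intestine, 1 in the report, numbered 0 with the filter of 200 RPKM, the strongest peak or peaks of at least 1 kb, and 2 with the nearest start. By nearest start 1 gene, Snrnp35, was past 2-fold higher in large intestine (16.4 RPKM in spleen and 40.7 in large intestine, log2 ratio 1.24). With the filter of 200 RPKM the median log2 ratio was -0.17 with 4 of 19 genes above 0, the other spliceosome genes were at -0.16, and the median gene-body averages were 9.25 RPKM in spleen and 8.82 in large intestine. By nearest start these averages were 9.50 and 8.96 RPKM. The cause was not tested. Of 311 recomputed ratios of 35 single genes, 291 stayed within the counting interval, 20 moved further, and 32 changed sign. No paired analysis was possible because each tissue had 1 library and no result comes from a test. Depth limits single genes, whose median counting SE was 0.14 on the log2 scale.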
